A study of Homo sapiens with 6 samples.

Results

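The miR-29a-3p mimic was compared with the miR-223-3p mimic in NCI-H2023, an established human lung adenocarcinoma cell line, and each gene that differed was placed against the control to show which mimic had moved. The members are the 2 samples transfected with the miR-29a-3p mimic and the 2 transfected with the miR-223-3p mimic, 4 of the 6 samples in the series, and all 17687 named genes on the array were compared. The other two samples are the control. A mimic is a synthetic small RNA that is loaded in the cell like the natural microRNA. In all groups the line was unmodified and was reverse transfected with Lipofectamine RNAiMAX, meaning that cells were plated onto the RNA and lipid mixture. The groups differed in the RNA: miR-29a-3p mimic, miR-223-3p mimic, or a negative control that the titles name CTRL mimic and the protocol names an All Stars siRNA. The dose of RNA was 0.5 nM in every group, with fresh medium after 24 h. The sources used here give no time of harvest. Samples of a group carry the letters A and B, nothing says that they came from separate cultures, and the p-values thus reflect the spread among these arrays, part or all of which may be technical.

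A microRNA guides an Argonaute protein to messenger RNAs that pair with its seed, the bases near its 5′ end, and the bound messengers are translated less and degraded sooner. The miR-29 family is best known for holding down collagens and other matrix genes and the enzymes that write and erase DNA methylation. MiR-223 is a microRNA of myeloid cells, known there for restraining granulocyte activation, and it also reaches epithelial cells in vesicles. Their targets largely differ because their seeds differ, so each mimic can serve as a second comparator for the other.

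The mature sequences from RefSeq (GRCh38.p14) are shown with the seed, bases 2 to 8, in capitals, because the seed sets which messengers can pair. The first 3 share a seed, and the last has its own.
hsa-miR-29a-3p: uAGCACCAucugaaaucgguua
hsa-miR-29b-3p: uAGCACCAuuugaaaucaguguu
hsa-miR-29c-3p: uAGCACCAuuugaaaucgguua
hsa-miR-223-3p: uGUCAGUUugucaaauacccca
MiR-29a-3p comes from the minus strand of chromosome 7 (chr7:130876748-130876769) and miR-223-3p from the plus strand of the X chromosome (chrX:66018937-66018958). Position by position, miR-29a-3p equals miR-29c-3p at 21 of 22 bases, while miR-29a-3p and miR-223-3p are equal at 2 of the 7 seed positions. In DNA letters the site that pairs with the miR-29 seed is TGGTGCT and that of the miR-223-3p seed is AACTGAC. Whether the genes below carry these sites in their untranslated regions was not analysed here. No mature microRNA was tested here, and the quantity of mimic taken up by the cells is unknown.

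Signals are log2 values, on which a difference of 1 is a 2-fold change. The array medians lay between 6.21 and 6.23. Across genes, the samples within a group correlated at 0.9938 to 0.995, and the SD of their differences ran from 0.3373 to 0.3735. Samples of different mimics correlated at 0.9922 to 0.9935, with SDs of 0.3844 to 0.4205. The keratins KRT8, KRT18 and KRT7, markers of simple epithelium, had mean signals of 17.4, 16.5 and 16.4, while 11 of 24 epithelial markers had a mean under 5. Alveolar markers were dim: NKX2-1 had a mean of 4.97, SFTPB 4.62, SFTPC 3.86 and NAPSA 3.63. Of the lung lineage list 16 of 23 had a mean under 5 and 7 lay at or above it. Of the leukocyte markers 12 of 19, and of the fibroblast and endothelial markers 13 of 16, had a mean under 5, PTPRC at 4.65 and PECAM1 at 3.49 among them. The mean over the leukocyte list lay between 4.64 and 4.76 in the 6 samples.

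Between the mimics, 39 genes differed, 0.221% of the genes tested, by limma with a constant prior at an adjusted p under 0.05 (Benjamini-Hochberg). Of these, 24 were higher with miR-29a-3p (0.136%) and 15 were lower (0.0848%). The size of the difference ran from 2.31-fold to 5.35-fold. When the prior followed the signal level, referred to below as the intensity trend, 344 genes passed (1.94%), 182 higher (1.03%) and 162 lower (0.916%). All 39 genes were among the 344. At every gene of the 39 both samples of one mimic lay on the same side of both samples of the other, but so did 38.7% of all genes. The strict test depended on every sample. Without 1 of the samples it called 0 genes, or C1QTNF6 alone when a control was left out, with 1473 to 1744 genes at an unadjusted p under 0.05. The intensity trend gave 141 genes without sample A of miR-29a-3p, 162 without its sample B, 217 without sample A of miR-223-3p and 150 without its sample B. In those fits and in the 2 without a control sample, 37 of the 39 genes passed each time. The exceptions were ANKRD1 and TMEM156. Of the 6 fits, the 2 without a control kept the same differences between the mimics, so they are close to 1 check. Of the 344 genes, 86 passed each time and 258 were lost in 1 or more of these fits.

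**Figure D1:**
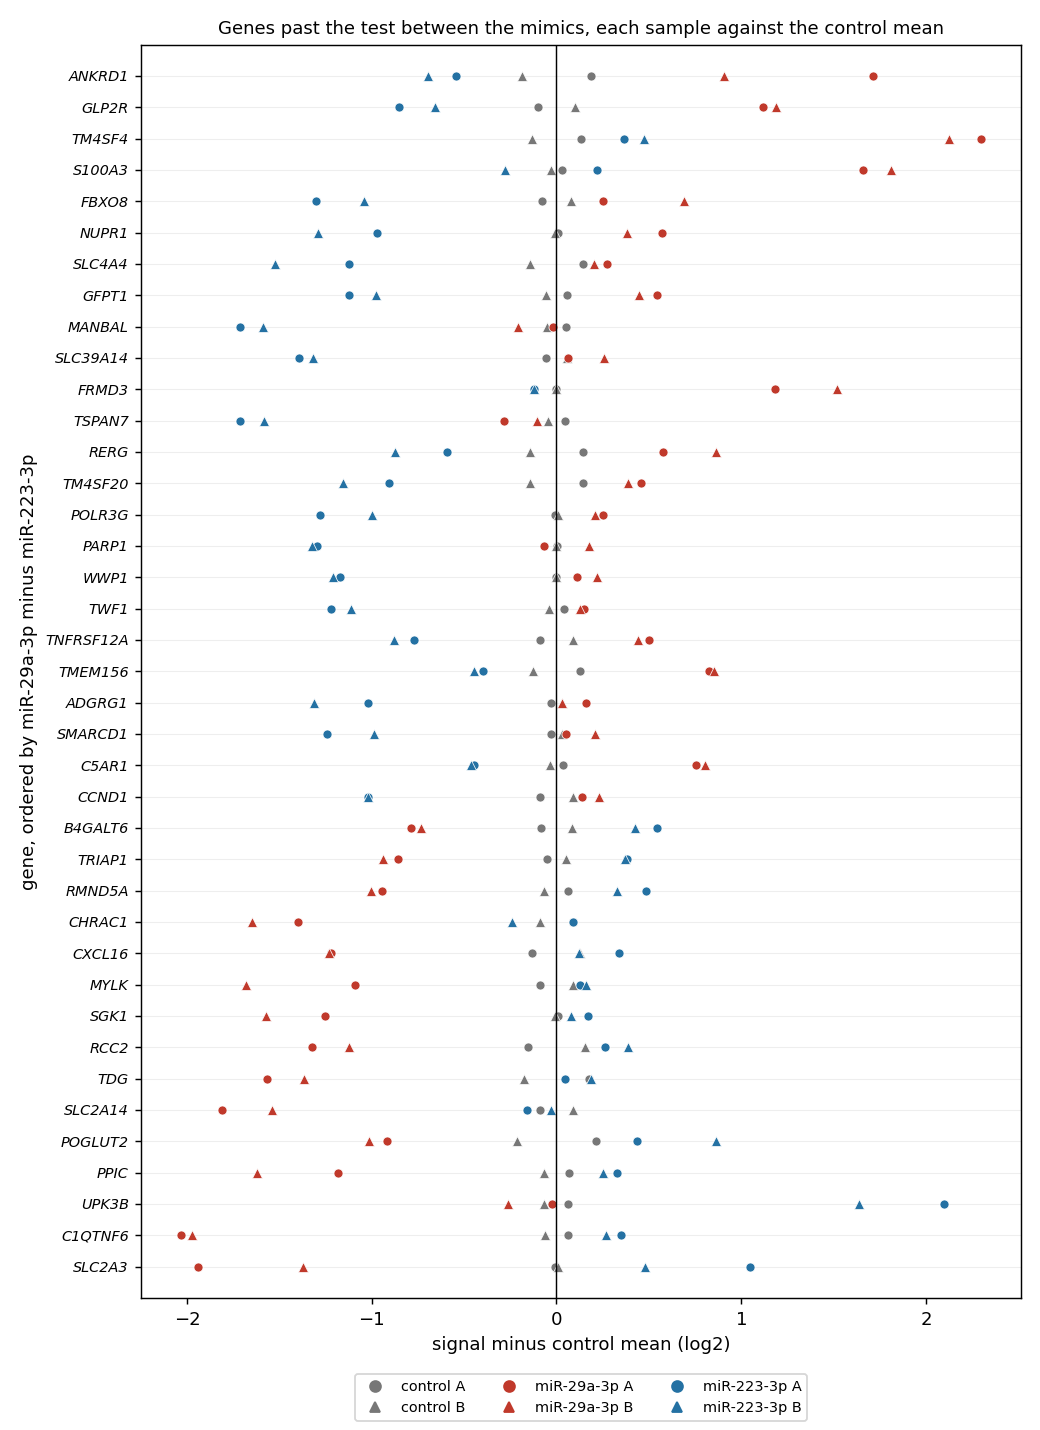
Signal of each sample minus the control mean (log2, x axis) for the 39 genes that differed between the mimics (y axis, ordered by the difference), with red for miR-29a-3p, blue for miR-223-3p, grey for control, circles for sample A and triangles for sample B. In the upper 24 genes most blue points lie left of the control while red points lie near it or to the right, and in the lower 15 genes the red points lie left.

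Placed against control, most of these differences came mainly from 1 mimic. A gene was assigned to a mimic when that mimic's distance from the control mean was at least 2 times the other's. By that rule 17 of the 39 genes departed mainly with miR-29a-3p, 16 mainly with miR-223-3p, and 6 lay on opposite sides of control with the mimics. No gene of the 39 had both mimics on the same side at like distances. Over all genes the shares were 30.1%, 26.5%, 12.8% and 30.6% in that order. The class is a description without a test, and it used 2 control samples for both mimics. For 30 of the 39 genes the class was the same with either control sample alone. The exceptions were ANKRD1, B4GALT6, FBXO8, GFPT1, POGLUT2, RMND5A, TM4SF20, TMEM156 and TNFRSF12A. Of the 344 genes of the intensity trend, 224 kept their class with either control and 120 did not.

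Direction and class went together. Of the 15 genes lower with miR-29a-3p, 12 departed mainly with miR-29a-3p, 1 with miR-223-3p and 2 with both. Of the 24 higher genes, 15 departed mainly with miR-223-3p, 5 with miR-29a-3p and 4 with both. In other words the mimic with the lower signal was usually the one farther from control. In 14 of the 15 lower genes both miR-29a-3p samples lay below both controls, against 18.8% of all genes. In 22 of the 24 higher genes both miR-223-3p samples lay below both controls, against 18.2% of all genes. The other mimic often lay on the other side of control. Both miR-29a-3p samples lay above both controls in 20 of the 24 higher genes, against 3357 of all 17687 genes. Both miR-223-3p samples did so in 11 of the 15 lower genes, against 3304 of all genes. These genes were selected on a difference that uses the same mimic samples, so the counts describe them and were not tested. Among the 344 genes of the intensity trend, 104 of the 162 lower genes departed mainly with miR-29a-3p and 90 of the 182 higher genes mainly with miR-223-3p. Each mimic tested on its own against control with the constant prior gave 2 genes for miR-29a-3p (0.0113%), C1QTNF6 and TM4SF4, and 0 for miR-223-3p (0%), where 1343 genes had an unadjusted p under 0.05 in limma. These contrasts gave 182 genes (1.03%) and 121 genes (0.684%) in the intensity trend.

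**Figure D2:**
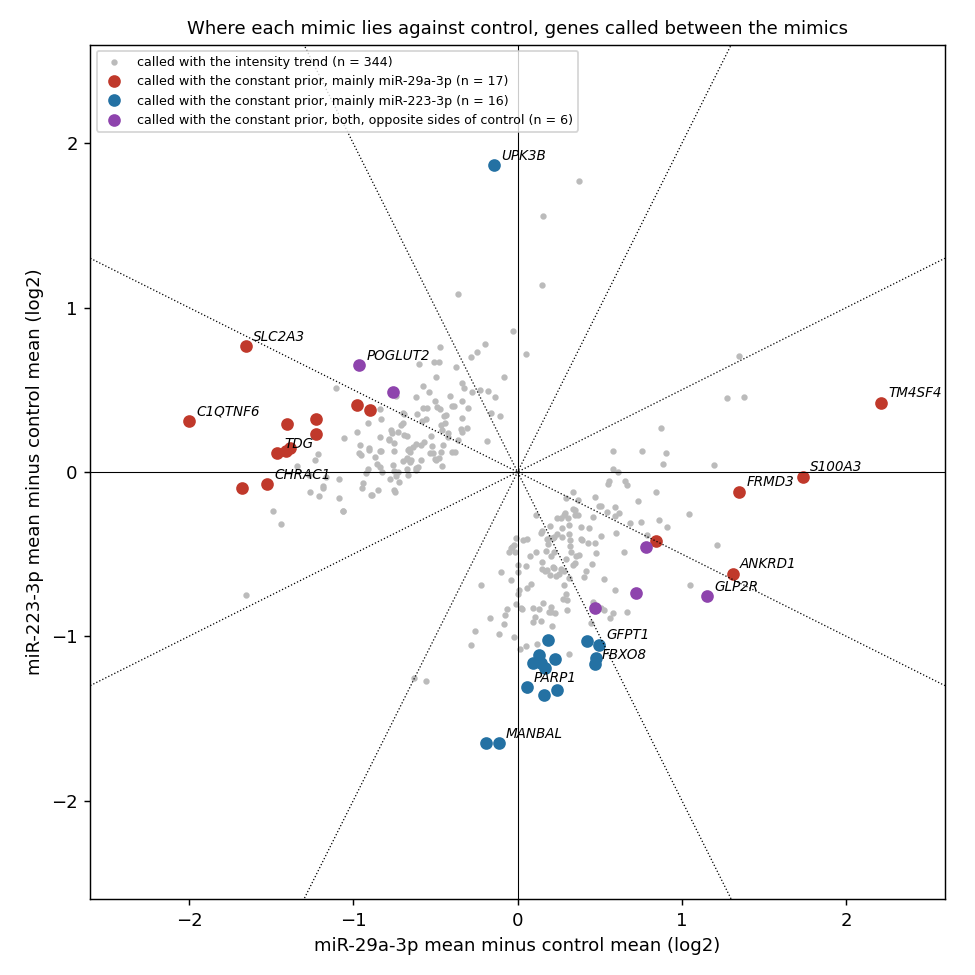
Mean of miR-29a-3p minus control (x axis, log2) against mean of miR-223-3p minus control (y axis, log2) for genes that differed between the mimics, where small grey points are the 344 genes called with the intensity trend and large points the 39 called with the constant prior, coloured by class. Dotted lines mark the 2-to-1 ratio that assigns a gene to a mimic. Red points (17) lie along the horizontal axis, blue points (16) along the vertical axis, nearly all of them below 0, and the 6 purple points between the dotted lines.

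The genes that fell with miR-29a-3p were led by C1QTNF6, a secreted member of the C1q/TNF-related family (chromosome 22, 37180166 to 37199423, GRCh38). C1QTNF6 measured 8.21 and 8.27 with miR-29a-3p (samples A and B), against 10.59 and 10.51 with miR-223-3p and 10.3 and 10.18 in control. The miR-29a-3p samples lay far below control, and the miR-223-3p samples lay above it by 0.31 in the mean. Its log2 difference between the mimics was -2.31 with a standard error of 0.173 and an adjusted p of 0.00878 in limma, a 4.96-fold difference. TDG, the glycosylase that removes thymine and oxidised methylcytosine from DNA (chromosome 12, 103965872 to 103988874), read 6.86 and 7.06 with miR-29a-3p, against 8.47 and 8.61 with miR-223-3p and 8.6 and 8.25 in control. CHRAC1, a histone-fold subunit of a chromatin remodelling complex (chromosome 8, 140511322 to 140517154), read 12.72 and 12.47, 14.21 and 13.88, and 14.21 and 14.03 in the same order. For both, the miR-223-3p and control samples overlapped and the miR-29a-3p samples lay lower. The differences were -1.58 for TDG (adjusted p = 0.0326) and -1.45 for CHRAC1 (adjusted p = 0.038, limma).

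PPIC, cyclophilin C, a prolyl isomerase of the secretory pathway, measured 9.03 and 8.59 with miR-29a-3p, against 10.54 and 10.46 with miR-223-3p and 10.28 and 10.14 in control. Its difference was -1.69, or 3.23-fold. The glucose transporter SLC2A3 (GLUT3) read 5.57 and 6.14 with miR-29a-3p, against 8.56 and 7.99 with miR-223-3p and 7.5 and 7.52 in control, so that the mimics lay on opposite sides of control with miR-29a-3p farther away. SLC2A3 had the largest size of difference among the 39, -2.42 with a standard error of 0.258. Its neighbour SLC2A14, which arose by duplication of SLC2A3, read 6.7 and 6.97, 8.35 and 8.48, and 8.42 and 8.6. These 2 genes are close copies and may share signal, so they may not count as separate results. The other genes lower with miR-29a-3p and departing mainly with that mimic were RCC2, a regulator of chromosome condensation, the serum- and glucocorticoid-induced kinase SGK1, the myosin light chain kinase MYLK, the chemokine CXCL16, RMND5A, a subunit of the CTLH ubiquitin ligase, and TRIAP1, a small mitochondrial lipid transfer protein. Their differences ran from -1.55 for RCC2 to -1.28 for TRIAP1. In these 6 genes the miR-223-3p mean lay 0.13 to 0.41 above the control mean.

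The genes that were higher with miR-29a-3p, with the miR-223-3p samples away from control, included 4 published targets of miR-223-3p. PARP1, the poly(ADP-ribose) polymerase that senses DNA breaks (chromosome 1, 226360691 to 226408093), measured 10.44 and 10.68 with miR-29a-3p, against 9.21 and 9.18 with miR-223-3p and 10.51 and 10.5 in control. The miR-29a-3p samples lay on either side of the controls, and the miR-223-3p samples lay below all others. Its difference was 1.37 with a standard error of 0.178 (adjusted p = 0.0326, limma). WWP1, a HECT-type ubiquitin ligase (chromosome 8, 86342547 to 86468503), read 11.59 and 11.7, 10.31 and 10.27, and 11.48 in both controls. SLC4A4, a sodium bicarbonate cotransporter (chromosome 4, 71062660 to 71572083), read 9.82 and 9.75, 8.42 and 8.02, and 9.69 and 9.4. FBXO8, an F-box protein (chromosome 4, 174236658 to 174283667), read 8.85 and 9.29, 7.3 and 7.56, and 8.52 and 8.68. In these 3 genes the miR-29a-3p samples lay just above the controls, by 0.17, 0.24 and 0.47 in the means. The differences between the mimics were 1.36 for WWP1, 1.57 for SLC4A4 and 1.64 for FBXO8.

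Of the other genes in this class, MANBAL measured 12.36 and 12.17 with miR-29a-3p, against 10.67 and 10.79 with miR-223-3p and 12.43 and 12.33 in control. The tetraspanin TSPAN7 read 10.42 and 10.6, 8.99 and 9.12, and 10.75 and 10.66. SLC39A14, the zinc, iron and manganese importer ZIP14, read 11.38 and 11.57, 9.92 and 10, and 11.26 and 11.37. MANBAL and TSPAN7 were lower than control with both mimics in the mean, by 0.12 and 0.20 with miR-29a-3p against 1.65 each with miR-223-3p. GFPT1, the rate-limiting enzyme of the hexosamine pathway that makes the sugar donor for glycosylation, read 13.88 and 13.78, 12.21 and 12.36, and 13.39 and 13.28. NUPR1, a stress-induced nuclear protein, read 12.45 and 12.26, 10.91 and 10.59, and 11.89 and 11.87. For GFPT1 and NUPR1 the miR-29a-3p samples also stood above both controls. CCND1, cyclin D1, which drives entry into the cell cycle, read 10.21 and 10.3 with miR-29a-3p, 9.05 in both miR-223-3p samples, and 9.98 and 10.16 in control. POLR3G, a subunit of RNA polymerase III, and the membrane protein TM4SF20 differed by 1.37 and 1.45. TWF1, an actin monomer binding protein, ADGRG1, an adhesion receptor, and SMARCD1, a subunit of SWI/SNF remodelling complexes, also belong here with differences of 1.31, 1.26 and 1.25. They were named after their values were seen.

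UPK3B, a uroplakin of the cell surface (chromosome 7, 76510552 to 76516522), was the exception among the lower genes. UPK3B measured 5.67 and 5.43 with miR-29a-3p, against 7.79 and 7.33 with miR-223-3p and 5.76 and 5.63 in control. Here miR-223-3p stood above all other samples, and the difference between the mimics was -2.01 with a standard error of 0.212. None of the other 4 uroplakins measured passed either test, with differences from -0.19 for UPK1B to 0.21 for UPK3A.

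Of the higher genes, 5 departed mainly with miR-29a-3p by the 2-to-1 rule. Both miR-29a-3p samples lay above both controls in 20 of the 24 higher genes, most of them in the other classes. TM4SF4, a membrane protein with 4 transmembrane spans (chromosome 3, 149474697 to 149503394), measured 12.46 and 12.29 with miR-29a-3p, against 10.53 and 10.64 with miR-223-3p and 10.3 and 10.03 in control. Both mimics lay above control, miR-29a-3p by 2.21 and miR-223-3p by 0.42. S100A3, a calcium-binding protein of the S100 family, read 11.11 and 11.26, 9.67 and 9.17, and 9.48 and 9.42. FRMD3, a FERM-domain protein, read 8.75 and 9.09, 7.45 in both miR-223-3p samples, and 7.57 in both controls. In S100A3 and FRMD3 the miR-223-3p mean lay within 0.12 of control. ANKRD1, a target gene of the coactivators YAP and TAZ, read 6.72 and 5.91, 4.46 and 4.31, and 5.19 and 4.82, and the spread between its miR-29a-3p samples was wide. It was lost from the intensity trend without sample A of miR-29a-3p. The fifth gene, TMEM156, differed by 1.26 and was named after its values were seen.

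In 6 genes the control lay between the mimics at like distances. GLP2R, the receptor of glucagon-like peptide 2, measured 7.94 and 8.01 with miR-29a-3p, against 5.97 and 6.16 with miR-223-3p and 6.72 and 6.92 in control. The 3 groups did not overlap, and the difference of 1.91 was split into 1.16 above and 0.76 below control. POGLUT2, a glucosyltransferase of the endoplasmic reticulum that modifies EGF-like repeats, read 8.21 and 8.11, 9.56 and 9.99, and 9.34 and 8.91, in the opposite order. RERG, a small GTPase of the RAS superfamily, read 9.5 and 9.79, 8.33 and 8.05, and 9.07 and 8.78. B4GALT6, a lactosylceramide synthase, differed by -1.25. C5AR1, the complement C5a receptor, and TNFRSF12A, the receptor of the cytokine TWEAK, differed by 1.24 and 1.30 and were named after their values were seen. Had the ratio been 1.5, 2 genes would have been in this class, and with a ratio of 3 it would have held 15.

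Published targets of the microRNAs were described as lists, each against all genes, of which 8697 were higher and 8858 lower with a median difference of -0.005. List counts in the intensity trend stand beside 1.03% of all genes called higher and 0.916% called lower. Lists of bright genes stand beside a larger share, 6.11% of genes at 11 and over in either direction. Targets of the miR-29 family outside the matrix were mostly lower with miR-29a-3p. Of 29 measured, 21 were lower and 7 higher, and the median difference was -0.35. TDG, C1QTNF6 and CHRAC1 passed the constant prior. In the intensity trend 8 fell and 0 rose, adding INSIG1, which retains the sterol sensor in the endoplasmic reticulum, the DNA methyltransferase DNMT3A, the adaptor TRAF4, the cell cycle kinase CDK6 and the phosphatase PPM1D. Leaving out 1 sample left 3 to 7, with 3 without sample B of miR-223-3p, 4 without its sample A, 4 without sample B of miR-29a-3p and 5 without its sample A. TRAF4 was lost in all 6 of those fits. The median of the list lay 0.25 below control with miR-29a-3p and 0.10 above it with miR-223-3p.

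DNMT3A measured 8.51 and 8.97 with miR-29a-3p, against 9.82 and 9.69 with miR-223-3p and 8.93 and 9.3 in control, so miR-223-3p contributed more to its difference of -1.02 than miR-29a-3p did. CDK6 measured 8.11 and 7.75, 8.83 and 8.96, and 8.75 and 8.79, a departure mainly with miR-29a-3p. The DNA demethylases TET1, TET2 and TET3 differed by -0.87, -0.61 and -0.96 without passing either test. DNMT3B differed by -0.28, the survival factor MCL1 by -0.33, the histone demethylase KDM5B by -0.50 and the small GTPase CDC42 by -0.35, also not past either test. TET2 and KDM5B lay below control with both mimics, by 0.95 and 0.34 for TET2 and by 0.97 and 0.47 for KDM5B, which makes their difference between the mimics smaller than their distance from control with miR-29a-3p. MAML3, a coactivator of Notch signalling, did likewise, at 1.57 and 0.53 below control.

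The matrix targets of miR-29 moved less between the mimics. Of 23 measured, 15 were lower and 8 higher with a median of -0.15, and 0 passed the constant prior in limma, with 7 at an unadjusted p under 0.05, against 10.3% of all genes. The intensity trend added 3 that fell: ADAMTS9, a secreted protease, SERPINH1, the collagen chaperone HSP47, and LAMC1, a laminin chain. Without sample B of miR-223-3p none of the 3 passed, and without any other mimic sample 2 did. ADAMTS9 measured 8.24 and 7.96 with miR-29a-3p, against 9.16 and 9.22 with miR-223-3p and 9.18 and 9.39 in control. SERPINH1 read 9.01 and 9.53, 10.34 and 10.25, and 9.53 and 10.09, with a miR-29a-3p sample equal to a control. The collagens best known as targets were dim or near control here. COL4A1 read 3.04 to 3.69 over the 6 samples and COL1A1 4.27 to 5.13, with differences of 0.095 and -0.36. COL4A2 differed by -0.21. COL5A2, FBN1, the gene of fibrillin 1, and ADAM12, a membrane protease, differed by -0.95, -0.82 and -0.80, with adjusted p of 0.0696, 0.0742 and 0.0808 in the intensity trend of limma.

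Published targets of miR-223-3p showed the opposite sign. Of 33 measured, 21 were higher with miR-29a-3p and 12 lower, with a median of 0.185. PARP1, WWP1, SLC4A4 and FBXO8 passed the constant prior. In the intensity trend 6 were higher and 1 lower, adding RHOB, a small GTPase, and MSMO1, a sterol oxidase, on the higher side and HMGCS1 on the lower. Without 1 of the samples 5 to 7 were higher. The list median was 0.22 below control with miR-223-3p and 0.06 below it with miR-29a-3p. RHOB measured 9.79 and 9.84 with miR-29a-3p, against 8.13 and 8.77 with miR-223-3p and 9.03 and 9.55 in control, so both mimics departed from control on opposite sides. HMGCS1, which makes the precursor of sterols, measured 11.27 and 11.45 with miR-29a-3p against 12.06 and 12.05 with miR-223-3p and 12.06 and 12.01 in control. Listed as a target of miR-223-3p, it departed mainly with miR-29a-3p, and it passed in 3 of the 6 fits that left out a sample. Several well-studied targets did not pass. FBXW7 differed by -0.29, FOXO1 by 0.19, FOXO3 by -0.45, IGF1R by 0.27, NFIA by 0.43 and E2F1 by 0.68, none past either test between the mimics. For NFIA and E2F1 both miR-29a-3p samples lay above both miR-223-3p samples, as they did for 19.2% of all genes.

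**Figure D3:**
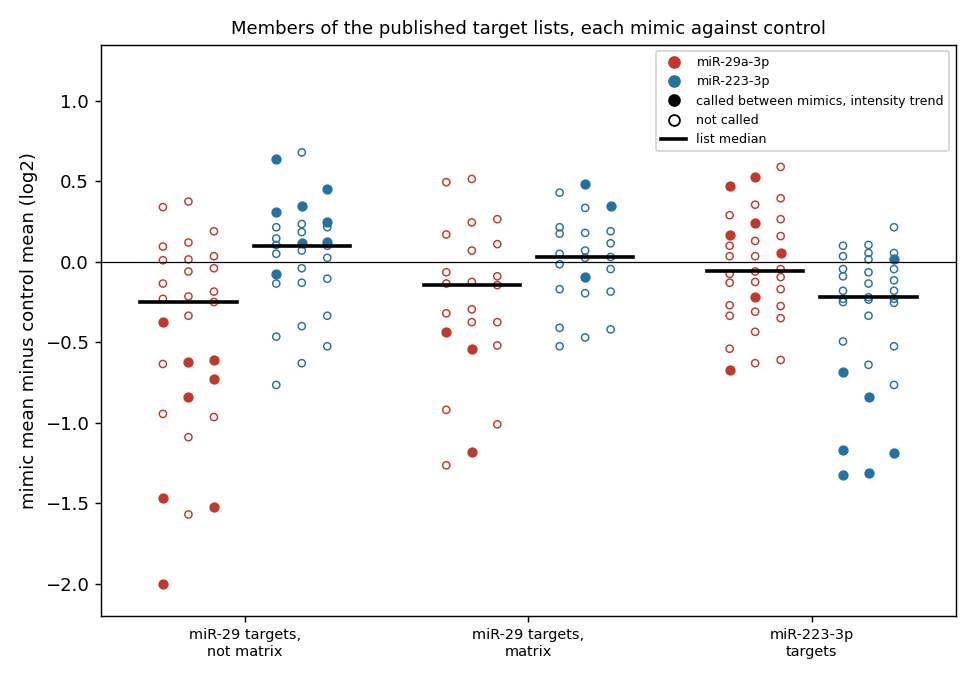
Mean of each mimic minus control (log2, y axis) for the measured members of 3 lists of published targets (x axis), with red for miR-29a-3p, blue for miR-223-3p, filled points for genes called between the mimics with the intensity trend, open points for the rest and bars for list medians. The red median of the miR-29 targets outside the matrix is at -0.25 and their blue median at 0.10, and the blue median of the miR-223-3p targets is at -0.22 with a red median at -0.06.

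Metallothioneins, small proteins that bind zinc and copper and rise when free metal rises, were lower with miR-29a-3p. Their list, which holds metal transporters as well, had 14 members measured, 11 lower and 3 higher, with a median difference of -0.495. With the intensity trend MT1F, MT1X, MT2A, MT1G and MT1B fell, and SLC39A14 alone was higher. Over all genes 0.916% were lower and 1.03% higher. MT1X (chromosome 16) measured 12.39 in both miR-29a-3p samples, 13.44 and 13.34 with miR-223-3p, and 13.12 and 13.19 in control. MT2A measured 14.88 and 14.92, 15.77 and 15.6, and 15.37 and 15.32, and its 3 groups did not overlap. MT1F measured 9.89 and 9.77, 10.84 and 10.98, and 11.06 and 10.53. By class, MT1F, MT1X, MT1G and MT1B departed mainly with miR-29a-3p, MT2A lay on opposite sides of control, and SLC39A14 departed mainly with miR-223-3p. MT1E went against the others at 0.24 with both mimics below control, not past either test. The metallothioneins are near-identical copies in a cluster and may share probe signal, so the 5 genes may not be separate measurements. Without sample B of miR-29a-3p 3 of them passed, and MT1F, MT1X and MT2A passed in all 6 fits that left out a sample.

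The promoters of MT1X and MT2A are printed because these genes moved together and carry several copies of a known regulatory motif. The metal response element was searched as TGCACNC or TGCGCNC on both strands in the 250 bases before the start site, and matches are in capitals. The sequences are from RefSeq (GRCh38.p14), on the plus strand of chromosome 16.
MT1X promoter, chr16:56682220-56682469: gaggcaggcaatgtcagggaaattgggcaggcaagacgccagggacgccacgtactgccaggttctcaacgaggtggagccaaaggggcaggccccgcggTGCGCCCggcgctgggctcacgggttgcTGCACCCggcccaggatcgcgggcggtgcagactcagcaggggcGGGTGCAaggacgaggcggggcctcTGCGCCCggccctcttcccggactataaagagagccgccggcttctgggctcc
MT2A promoter, chr16:56608334-56608583: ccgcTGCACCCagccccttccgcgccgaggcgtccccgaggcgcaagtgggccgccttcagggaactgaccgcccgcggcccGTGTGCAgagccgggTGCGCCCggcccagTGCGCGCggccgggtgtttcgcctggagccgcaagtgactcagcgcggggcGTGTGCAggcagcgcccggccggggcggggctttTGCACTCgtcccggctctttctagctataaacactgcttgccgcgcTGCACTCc
MT1X has 4 matches and MT2A 7. The promoter table held 5 metallothioneins, MT1B, MT1H, MT1X, MT2A and MT4, and each had 3 or more matches, against 1.98% of 14250 promoters of genes on the array. At least 1 match was found in 29.8% of those promoters. A match is a description of the sequence. MT1H, with 8 matches, differed by -0.48 and MT4, with 3 matches, by -0.15, neither past either test.

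Genes of cholesterol synthesis were also lower with miR-29a-3p. Of 19 measured, 16 were lower and 3 higher, with a median of -0.375, and 0 passed the constant prior in limma, with 9 at an unadjusted p under 0.05 (10.3% of all genes). With the intensity trend 5 fell: INSIG1, the rate-limiting epoxidase SQLE, HMGCS1, the isomerase IDI1 and the reductase DHCR7. MSMO1 alone was higher, and it is also a listed target of miR-223-3p. This count rested on single samples, since 1 gene fell without either sample of miR-223-3p and 2 without either sample of miR-29a-3p. SQLE measured 10.82 and 10.7 with miR-29a-3p, against 11.75 and 11.44 with miR-223-3p and 11.16 and 11.01 in control. INSIG1 measured 8.23 and 8.02, 9.15 and 9.25, and 8.91 and 8.58. In both the mimics lay on opposite sides of control without overlap. MSMO1 measured 16.05 and 16.01, 15.69 and 15.44, and 16.33 and 16.17, below control with both mimics. A sterol regulatory element written as TCACNCCAC was found in 1 of 18 promoters of the list, that of SREBF2, and in 0.898% of all promoters. SREBF2, the transcription factor of this pathway, differed by -0.62 without passing either test.

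Enzymes that fold and modify collagen and other secreted proteins were split. Of 31 measured, 16 were lower and 15 higher with a median of -0.005, as over all genes. PPIC and POGLUT2 passed the constant prior, and SERPINH1, COLGALT1, which adds galactose to collagen, and P3H1, a collagen prolyl hydroxylase, passed with the intensity trend, all 5 lower with miR-29a-3p. The count was 2 when miR-29a-3p sample A or miR-223-3p sample B was left out, and 3 when miR-223-3p sample A was. COLGALT1 measured 11.59 and 11.82 with miR-29a-3p, against 12.37 and 12.56 with miR-223-3p and 12.28 and 12.48 in control. P3H1 measured 11.02 and 11.15, 11.76 and 11.68, and 11.63 and 11.75. Both departed mainly with miR-29a-3p.

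Stress response genes were mostly higher with miR-29a-3p. In the list of ATF4 and unfolded protein genes, which supply amino acids under stress, 19 of 27 were higher, with a median of 0.20. DDIT4, an inhibitor of the growth kinase mTORC1, CHAC1, which degrades glutathione, the asparagine synthetase ASNS and the serine synthesis enzymes PHGDH and PSAT1 were higher in the intensity trend. None was lower, and over all genes 1.03% were higher. The median signal of the list was 11.05, and 6.11% of genes at 11 and over were called in either direction. DDIT4 measured 12.46 and 12.78 with miR-29a-3p, against 11.24 and 11.38 with miR-223-3p and 11.86 and 12.2 in control, on opposite sides. The other four departed mainly with miR-29a-3p: CHAC1 by 1.38 above control, PHGDH by 0.91, ASNS by 0.73 and PSAT1 by 0.58. The count of 5 was 1 without sample A of miR-29a-3p and 2 without any other mimic sample.

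Among targets of NRF2, the factor that induces antioxidant enzymes, 19 of 23 were higher with a median of 0.23. The list median lay 0.02 above control with miR-29a-3p and 0.135 below it with miR-223-3p. OSGIN1, the glutathione synthesis subunit GCLM, the export pump ABCC2, the cystine importer SLC7A11 and the malic enzyme ME1 rose in the intensity trend, and none fell. GCLM measured 12.01 and 12.11 with miR-29a-3p, 11.16 in both miR-223-3p samples, and 11.53 and 11.65 in control. ABCC2 departed mainly with miR-223-3p, 0.59 below control. SLC7A11 departed mainly with miR-29a-3p, 0.88 above control, and GCLM, OSGIN1 and ME1 lay on opposite sides. Without sample A of miR-29a-3p 2 of the list passed, and without the other samples 4 to 6.

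Targets of YAP and TAZ, the coactivators of the Hippo pathway, were higher in 16 of 22 with a median of 0.26. ANKRD1 passed the constant prior, and CCN1, a secreted matrix protein, and the receptor kinase AXL passed with the intensity trend, where 1.03% of all genes were higher. IGFBP3, which binds insulin-like growth factors, fell. IGFBP3 measured 12.8 and 12.46 with miR-29a-3p, against 14.12 and 13.79 with miR-223-3p and 13.79 and 13.9 in control. CCN2, a commonly used target of the pathway, read 5.57 and 6.62 in the controls and differed by -0.32, not past either test. The count of 3 higher genes was 0 without sample A of miR-29a-3p, 1 without its sample B or sample B of miR-223-3p, and 2 without sample A of miR-223-3p. Of 23 inflammatory genes of NF-kB, the chemokine CCL2 and the adhesion molecule ICAM1 were higher with miR-29a-3p and the lipocalin LCN2 was lower, all in the intensity trend and all departing mainly with miR-223-3p. CCL2 measured 10.61 and 10.64 with miR-29a-3p, against 9.66 and 9.31 with miR-223-3p and 10.56 and 10.09 in control. ICAM1 measured 12.76 and 12.82, 12.09 and 11.73, and 12.57 and 12.45. CCL2 and ICAM1 passed in all 6 fits that left out a sample. LCN2 was lost without either sample of miR-29a-3p or sample A of miR-223-3p.

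Of 24 epithelial markers, EPCAM and CDH1, E-cadherin, were lower with miR-29a-3p in the intensity trend, as were 0.916% of all genes. None was higher. EPCAM and CDH1 differed in class. EPCAM measured 10.36 and 10.59 with miR-29a-3p, against 11.39 and 11.54 with miR-223-3p and 10.49 and 10.16 in control, so miR-223-3p stood above the rest. CDH1 measured 10.26 and 9.67, 11.16 and 10.51, and 10.79 and 10.82, where the miR-223-3p samples lay on either side of control and miR-29a-3p lay below. The desmosomal cadherin DSC2 also departed mainly with miR-223-3p, at 9.77 and 9.4 against 7.82 and 7.81 in control and 7.95 and 8.43 with miR-29a-3p. The epithelial count of 2 was 1 without either miR-29a-3p sample or without sample A of miR-223-3p. Of 24 mesenchymal and TGF-beta genes 0 passed with either prior in limma, with 3 at an unadjusted p under 0.05, where 10.3% of all genes stood.

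Other lists held single genes that passed. In the list of 28 tetraspanins and TM4SF proteins, TM4SF4, TM4SF20 and TSPAN7 were higher by the constant prior, and the list median was 0.04. TSPAN13 was lower in the intensity trend, and it was lost without either sample of miR-29a-3p or sample B of miR-223-3p. Among 22 genes of the G1 phase, CCND1 and MYC were higher and CDK6 lower. MYC did not pass without either sample of miR-29a-3p or without sample B of miR-223-3p, and CDK6 did not pass without sample B of miR-29a-3p or either sample of miR-223-3p. Among 17 S100 genes, S100A3 rose while S100A9 and S100A16 fell, S100A9 from 10.53 and 11.04 in control and 10.46 and 11.05 with miR-223-3p to 9.54 and 9.7 with miR-29a-3p. Neither fell without sample A of miR-29a-3p, and 1 of the pair did without any other single mimic sample. Of 35 genes of glucose uptake, glycolysis and hypoxia, 27 were higher, with a median of 0.115. LDHA, lactate dehydrogenase, was higher by 0.40 with the intensity trend, against the fall of SLC2A3 and SLC2A14. The Wnt antagonist DKK1 was higher by 1.39 and departed mainly with miR-223-3p, and the Wnt receptor FZD6 was lower by 0.67. DKK1 passed in all 6 fits that left out a sample. LDHA was lost without either sample of miR-29a-3p or sample B of miR-223-3p. FZD6 was lost without either sample of miR-29a-3p or sample A of miR-223-3p.

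The remaining lists held few calls, all in the intensity trend apart from PARP1. Of 33 genes of DNA repair and PARP signalling, NEIL3, a glycosylase, was higher beside PARP1, by 0.57. GINS1, a subunit of the replicative helicase, was lower by 0.66 among 30 genes of S phase. DCP2, which removes the cap of messenger RNAs, was lower by 1.21 among 22 genes of the microRNA machinery and messenger decay. PPM1D was the 1 of 25 targets of p53 that passed, and it was lost without any one of the 4 mimic samples. Of 30 plasma protein genes typical of liver, the fibrinogen chains FGB and FGG and ceruloplasmin, CP, were higher by 0.51, 0.38 and 0.63, and CP lay below control with both mimics. CD68, a lysosomal protein on the leukocyte list, was higher by 0.75. Of these, FGG and CP were lost in all 6 fits that left out a sample. NEIL3, GINS1 and CD68 were lost without any one of the 4 mimic samples, and DCP2 and FGB without sample B of miR-29a-3p.

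Several lists gave 0 calls with either prior in limma: fatty acid synthesis, interferon-stimulated genes, antigen presentation, Notch, mitosis, histones, lung lineage, and fibroblast and endothelial markers. Together with the mesenchymal list they held 209 measured entries, of which 16 had an unadjusted p under 0.05, beside 10.3% of all genes. Of the 27 histone genes 23 were lower with miR-29a-3p, with a median of -0.17, and none passed. Calls depended on signal. With the intensity trend 0.0769% of genes with a mean signal under 5 were called and 6.11% of those at 11 and over, where the median residual SD was 0.122 against 0.238. Genes with a mean signal of 5 to 8 had a median residual SD of 0.248, and 0.825% of them were called. Why dim genes such as COL4A1 and COL1A1 are in the range with the fewest calls was not tested.

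**Figure D4:**
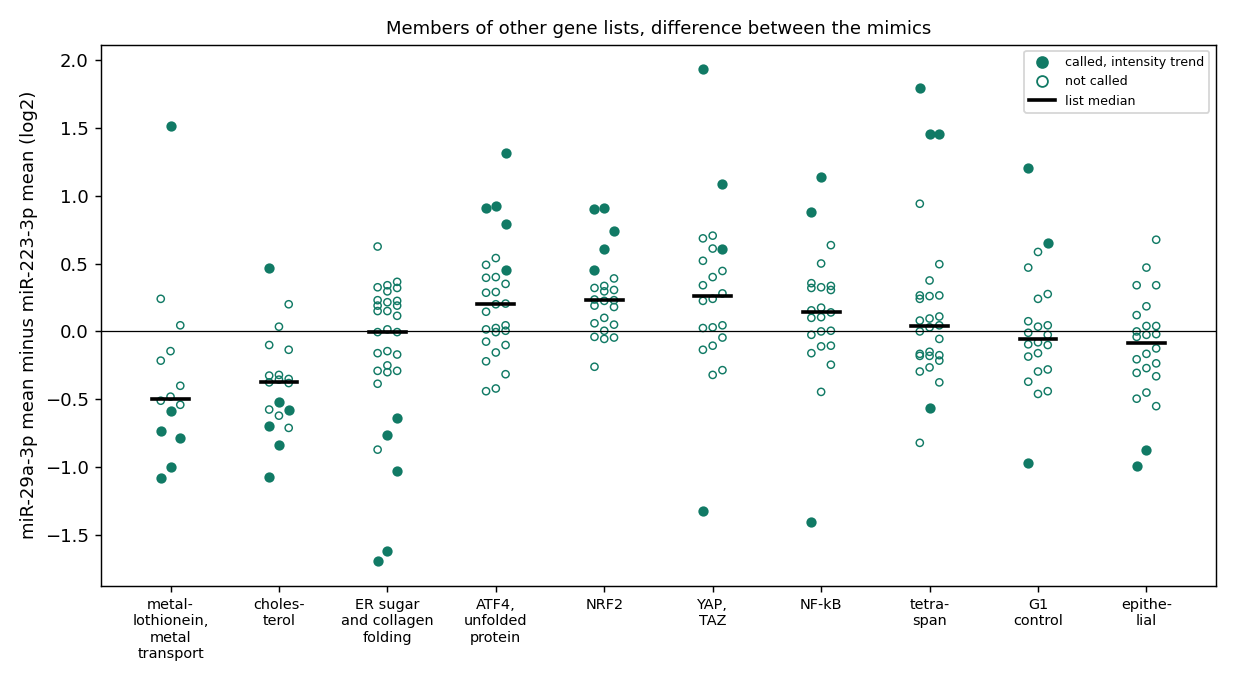
Difference between the mimics (miR-29a-3p minus miR-223-3p means, log2, y axis) for the measured members of 10 other gene lists (x axis), with filled points for genes called with the intensity trend, open points for the rest and bars for list medians. Medians lie lowest for metallothioneins and metal transport (-0.495) and cholesterol genes (-0.375), and highest for targets of YAP and TAZ (0.26) and of NRF2 (0.23).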

How the data were processed

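Total RNA from 6 samples was hybridised to 1 array each. The deposited values are log2 signals per probe set, made by the authors with RMA, which corrects background, equalises array distributions and summarises probes, and the notes name the build hg38, per the submitters' processing notes. The sources used here give no version. RMA hides a change in total messenger RNA and pulls changes of dim genes toward 0. Of 21448 probe sets, 17709 had 1 gene in the platform annotation, 0 had several and 3739 were unnamed. A gene on several probe sets was represented by its brightest, which left out 22. No sample was left out and nothing was imputed. Gene coordinates are those of RefSeq on GRCh38.

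The 4 mimic and 2 control samples entered 1 fit in limma 3.58.1 (R 4.3.3), with 3 residual degrees of freedom, no block, a constant prior and Benjamini-Hochberg adjustment over 17687 genes at 0.05. Folds are the antilog of the difference in means. The intensity trend was an alternative, as were a robust prior, leaving out genes with a mean under 5, further normalization, a replicate block, array weights and leaving out each sample. Where that left 1 sample in a group, it was assumed to vary like the others. Precision is limited by having 2 arrays a group. The labels do not say whether the letters A and B pair the samples. The A minus B differences of the groups correlated at 0.0682, 0.0039 and 0.1345 across genes, which does not decide it.

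The members and the 33 gene lists were chosen with earlier results of these data known, so list counts are descriptions. Named genes were the 15 largest called differences in each direction without overlap between the mimics, called list members, up to 4 members of each list and a set of well-known targets. Genes beyond the rule are marked in the text. List members named for the intensity trend were chosen after their values were seen. The same holds for CCN2, MT1E, MT1H, MT4, SREBF2, ATF4, XBP1, DDIT3 and ATF3.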

Additional observations from a re-analysis of the deposited data

How the results depend on the processing

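The 39 genes became 344 with the intensity trend (182 higher, 162 lower), 107 with dim genes left out (58 higher, 49 lower) and 571 at an unadjusted p under 0.01 with 1.5-fold (286 higher, 285 lower). They became 1 with the 4 mimic samples alone (0 higher, 1 lower) and 0 with the replicate block, where 1943 genes had an unadjusted p under 0.05 in limma. Leaving out 1 sample gave 0 to 1 genes (0 higher, 0 to 1 lower). A robust prior, quantile normalization, median centring, array weights and all probe sets gave 31 to 41. With the intensity trend, leaving out 1 sample, chosen after seeing the data, gave 141 to 336 genes (67 to 177 higher, 74 to 160 lower), and adding the replicate block gave 460 (250 higher, 210 lower), with all 344 among them. By class, the intensity trend gave 141 genes mainly with miR-29a-3p, 106 mainly with miR-223-3p, 95 on opposite sides and 2 on the same side. The class of opposite sides held 2 genes at a ratio of 1.5 and 15 at a ratio of 3. Of the list members, 19 were called, against 73 with the intensity trend, 32 with dim genes left out and 0 to 0 without each mimic sample in turn. None of the 33 called genes named by rule changed direction under any of 14 settings. That outcome was nearly fixed in advance, so it is no support for these genes. Most settings leave the difference in means as it was. Without overlap between the mimics, leaving out 1 sample cannot reverse it. The cause of these shifts was not tested.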

Other observations

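Among genes that passed the intensity trend and not the constant prior, chosen after their values were seen, ADH6, an alcohol dehydrogenase, differed by -1.68, the transporter SLC18B1 by -1.38 and the tyrosine kinase FRK by -1.26. FRK measured 10.61 and 10.85 with miR-29a-3p, against 11.93 and 12.05 with miR-223-3p and 11.99 and 11.58 in control. ADH6, SLC18B1 and FRK departed mainly with miR-29a-3p, and SLC18B1 and FRK passed in all 6 fits that left out a sample.

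On the higher side stood FOSL1, a subunit of the AP-1 transcription factor, at 1.74, TRNP1 at 1.46, NF2, the tumour suppressor merlin that acts upstream of YAP, at 1.44 and HPD, an enzyme of tyrosine breakdown, at 1.42. FOSL1 measured 9.8 and 9.48 with miR-29a-3p, against 8.35 and 7.46 with miR-223-3p and 8.53 and 8.65 in control. NF2 measured 9.41 and 9.25, 8.19 and 7.59, and 8.64 and 8.86. FOSL1, TRNP1 and NF2 lay on opposite sides of control with the mimics and HPD departed mainly with miR-223-3p. These 4 genes passed in all 6 fits that left out a sample.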
